A study of Mus musculus with 42 samples.

Results

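The tumor necrosis factor (TNF) family was examined here through 10 genes, 5 ligands and 5 receptors, among the 19227 named genes with a row in any of the 12 deposited tables. The members were taken by name: Tnf, Ltb, Tnfsf10, Tnfsf11 and Tnfsf15 on the ligand side, and Tnfrsf1a, Tnfrsf1b, Tnfrsf11b, Tnfrsf12a and Ltbr on the receptor side. Of 120 possible pairs of a member and a table, 111 had a row and 106 had a mean normalized count of at least 10, the minimum for testing. Tnfsf11 had rows in the stromal tables only, and Ltb was missing from 1 goblet cell table. In mm10, Tnfsf10 lies at chr3:27317028-27342427, Tnfsf11 at chr14:78277445-78308043 and Tnfsf15 at chr4:63727084-63745113. Tnfrsf1a (chr6:125349362-125362484) and Ltbr (chr6:125306571-125313885) are 35476 bases apart, Tnfrsf1b lies at chr4:145213463-145246870, Tnfrsf11b at chr15:54250619-54278484 and Tnfrsf12a at chr17:23675445-23677468.

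TNF family ligands are mostly made as membrane proteins that assemble into trimers, and several are also shed. Tnf binds the receptors encoded by Tnfrsf1a and Tnfrsf1b, and lymphotoxin beta, encoded by Ltb, forms a heterotrimer with lymphotoxin alpha that binds Ltbr. Tnfsf10 encodes the death ligand TRAIL, Tnfsf11 encodes RANKL, and Tnfsf15 encodes TL1A. Tnfrsf11b encodes osteoprotegerin, a secreted decoy receptor that binds RANKL and TRAIL, and Tnfrsf12a encodes Fn14, the receptor of TWEAK. In the gut, TNF is a well known inflammatory cytokine, and signals through many of these receptors reach NF-κB.

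The 42 RNA-seq libraries came from mice and fell into 18 groups. Goblet cells (Muc2-mCherry+, 12 libraries) and stromal cells (Gli1-tdTomato+, 12 libraries) were sorted from the proximal or distal colon at day 30 after tamoxifen, from males and females 2 to 4 months old. Controls carried Gli1-CreERT2 alone (GWTM2 goblet cells, GWTT stromal cells), and the other mice also carried floxed Smad4 (GS4M2, GS4T) or floxed Alk3, the BMP receptor gene Bmpr1a (GA3M2, GA3T), with 2 libraries per group. The deletion was thus driven in Gli1+ cells, so the goblet cells were not its target. Wild-type colonic organoids were left untreated (Control) or received 10 nM of IL-1α plus IL-1β (IL1a+IL1b) or of IL-17A for 12 or 72 hours, with 3 libraries per group. The labels do not tie libraries to animals or cultures, and the study's methods speak only in general terms of several mice per genotype. By Xist, 10 of the 18 groups held libraries of both sexes and so of more than 1 animal; for the other groups, p-values measure a spread between libraries that may be technical.

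Total reads recovered per library ranged from 14221322 to 23686940, with a median of 17156167.5. In stromal cells, normalized counts of Smad4 were 705 and 835 in GS4T-Proximal and 680 and 1171 in GS4T-Distal, against 1604 to 1781 in the GWTT libraries of those tables. Bmpr1a measured 2233 and 1842 in GA3T-Proximal and 2203 and 2043 in GA3T-Distal, against 2960 to 3485 in GWTT. Gli1 was 23.9 in GS4T-Proximal replicate 2 and 34.7 in GA3T-Proximal replicate 2, where every other stromal library had at least 642; leaving out either library added no call among the members. Goblet marker genes summed to at least 30946 CPM (counts scaled to a library total of 1000000 over named genes) in control goblet libraries and to 36590 to 49546 CPM after Smad4 loss, but to 10025 to 13566 CPM in GA3M2-Proximal and 15261 to 24447 CPM in GA3M2-Distal. The Gli1 stromal and fibroblast markers summed to at least 40851 CPM in control stromal libraries, and epithelial markers to at least 8783 CPM in control organoids. The 12-hour and 72-hour control organoids shared libraries: replicate 2 at 12 hours and replicate 1 at 72 hours held the same reads in all 12186 genes compared, as did replicate 4 of both times. The 6 listed control organoid libraries were therefore 4 distinct ones, and the time in culture of the shared ones is not known. Replicates 3 and 4 of each 12-hour cytokine group were also much closer to each other than other organoid replicates, with a mean chi-square per gene of 3.09 for IL1a+IL1b and 3.42 for IL-17A against 26.4 to 222 for other pairs within organoid groups, except replicates 2 and 4 of Control-72h at 3.41.

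Tnf and Ltb are neighbors on chromosome 17 (build mm10, GRCm38) and were the ligands called higher with both cytokines at 72 hours than in Control-72h. Tnf lies on the minus strand at chr17:35199381-35202007 and Ltb on the plus strand at chr17:35194439-35196320, leaving 3060 bases between them. The 250 bases before each RefSeq start (GRCm38.p6) are shown because this pair rose together in the organoids. Gene spans are from GENCODE. The RefSeq start of Ltb lies inside its GENCODE span, so the end of the Ltb window overlaps that span. Promoter sequences were found for 9 of the 10 members. The Tnf window is chr17:35202008-35202257 on the minus strand, with capitals marking the motif TATAAA, and the Ltb window is chr17:35194257-35194506 on the plus strand, with capitals marking a match to the 10-base NF-κB consensus (κB).
Tnf: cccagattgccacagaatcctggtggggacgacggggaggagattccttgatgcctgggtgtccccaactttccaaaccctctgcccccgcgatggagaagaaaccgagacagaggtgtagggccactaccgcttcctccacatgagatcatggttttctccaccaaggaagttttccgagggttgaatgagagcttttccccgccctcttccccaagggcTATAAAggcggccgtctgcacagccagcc
Ltb: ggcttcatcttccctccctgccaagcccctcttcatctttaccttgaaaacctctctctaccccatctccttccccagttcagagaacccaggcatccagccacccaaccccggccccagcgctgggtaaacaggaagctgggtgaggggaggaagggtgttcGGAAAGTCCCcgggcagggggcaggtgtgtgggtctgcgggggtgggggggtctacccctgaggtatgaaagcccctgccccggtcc
The TATAAA motif in the Tnf window began 29 bases before the start. The κB match in the Ltb window began 87 bases before the RefSeq start and read as the consensus on the other strand. On either strand, 7.25% of 32851 promoter windows of this length held a κB match and 12.4% held TATAAA. No other member's window held the κB consensus, and the Tnfsf11 window alone among the rest held TATAAA, on the other strand. These matches describe letters in a window and not binding, and the motifs did not overlap each other.

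The members differed widely between cell types in control cells. Each set of 4 libraries pooled the proximal and distal colon or, for organoids, both labeled times. Osteoprotegerin (Tnfrsf11b) was a stromal transcript, at 87.4 ± 28.9 CPM (SD, n = 4) in control stromal cells, 10.9 ± 4.55 in the 4 distinct control organoids and 0.783 ± 0.324 in control goblet cells (n = 4). No library of one cell type overlapped another for this gene. Tnfrsf1a, the widely expressed TNF receptor, measured 259 ± 35.3 CPM in stromal cells, 95.3 ± 16.1 in goblet cells and 73.8 ± 7.02 in organoids. Ltb measured 3.67 ± 1.43 CPM in stromal cells against 0.691 ± 0.312 in goblet cells, and Fn14 (Tnfrsf12a) measured 43.7 ± 13.7 against 21.3 ± 11.9 CPM. TL1A (Tnfsf15) went the other way, with 5.31 ± 1.54 CPM in goblet cells, 4.71 ± 1.83 in organoids and 0.451 ± 0.480 in stromal cells. TRAIL (Tnfsf10) was highest in goblet cells as well, at 15.8 ± 4.78 CPM against 7.15 ± 2.59 in stromal cells and 4.11 ± 1.43 in organoids. RANKL (Tnfsf11) measured 5.01 ± 3.16 CPM in stromal cells.

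**Figure D1:**
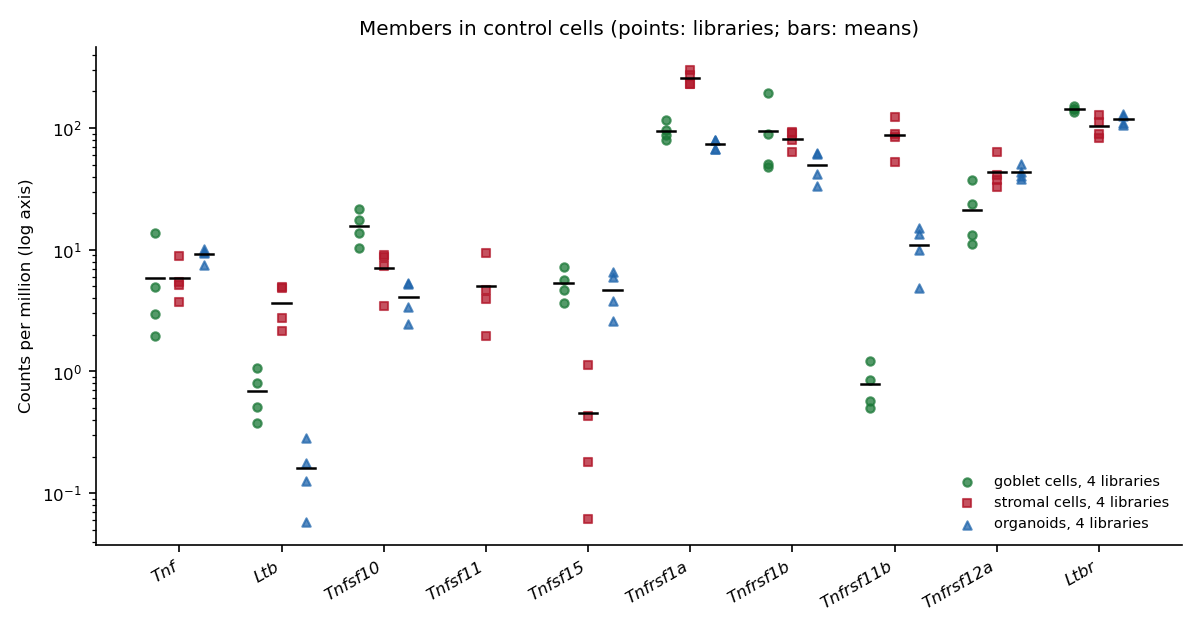
Levels of the 10 members in control cells, in CPM on a log axis, with 1 point per library (4 distinct libraries per cell type) and a bar at each mean. The Tnfrsf11b points of stromal cells, organoids and goblet cells sit in 3 separate bands with means of 87.4, 10.9 and 0.783 CPM.

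In limma on log2(CPM + 0.1), 6 of 9 tested members differed between control stromal and goblet cells at an adjusted p under 0.05 and a fold of at least 2, against 44.8% of all genes tested (18.9% higher and 25.9% lower). The fit had no term for segment. Proximal and distal libraries may come from the same mice, so its p-values treat libraries as independent that may not be. Tnfrsf11b was higher in stromal cells by 6.64 on the log2 scale (adjusted p = 3.38e-07). Tnfrsf1a was higher by 1.45 (adjusted p = 1.54e-05), Ltb by 2.25 (adjusted p = 8.18e-04) and Tnfrsf12a by 1.15 (adjusted p = 0.0229). Tnfsf15 was lower in stromal cells, with a log2 difference of -3.66 (adjusted p = 4.61e-04), as was Tnfsf10, with -1.18 (adjusted p = 0.0135). The median of all genes in this comparison was -0.23, and with upper-quartile rescaling it was 0.08 and the Tnfsf10 difference became -0.87, under the fold threshold. The Ltb values of the control stromal libraries stood beside B and plasma cell markers (5 genes) that summed to between 1564 and 4818 CPM, where control goblet libraries had at most 0.501 CPM; their part in the Ltb level was not tested.

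Between control organoids and control goblet cells, 3 of 8 tested members differed, against 15.1% of all genes (6.38% higher and 8.68% lower). Tnfrsf11b was higher in organoids by 3.58 (adjusted p = 2.27e-04) and Tnfrsf12a by 1.17 (adjusted p = 0.0205), and Tnfsf10 was lower (log2 -1.93, adjusted p = 0.00125). Tnf did not pass, with 9.17 ± 1.19 CPM in organoids, 5.88 ± 5.34 in goblet cells and 5.81 ± 2.22 in stromal cells. Per kilobase of exon, the most abundant members in goblet cells were Ltbr at 61.1 and Tnfrsf1a at 36.8 CPM per kilobase, in organoids Ltbr at 50.4 and Tnfrsf1a at 28.5, and in stromal cells Tnfrsf1a at 99.9 and Ltbr at 43.8. In each cell type these receptors stood above the ligands on this scale. The highest ligand by mean was Tnf, at 3.59 in goblet cells, 3.54 in stromal cells and 5.60 in organoids. In goblet cells that mean was raised by GWTM2-Distal replicate 1, at 13.7 CPM against 1.94 to 4.95, and Tnfsf10 followed at 3.00 per kilobase.

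The cytokine series asked how colonic epithelium answers IL-1 and IL-17A. At 72 hours, Tnf and Ltb were higher with either cytokine than in the libraries labeled Control-72h. Against the same libraries, Tnfrsf11b and Tnfrsf12a were higher with IL-17A, and Tnfsf15 was lower with IL-1. The controls of the IL1a+IL1b-72h and IL-17A-72h comparisons were the same 3 libraries, so the comparisons are not independent of each other. Of these 3 libraries, 2 held the same reads as controls labeled with the shorter time, so their time in culture is not known. The part of time in culture in the differences from control at either time was not tested.

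Tnf normalized counts in Control-72h were 113, 146 and 151, and they were 1089.5, 388 and 276 with IL1a+IL1b. Every treated library lay above every control, with replicate 1 far above the other two. That library stood apart in its marker sums as well, with goblet markers at 2449 CPM against 8740 and 10814 in the other two and 7135 to 7884 in Control-72h. Its macrophage list (5 of 12 genes with a row) summed to 238 CPM against 87.8 and 132. Its stromal and fibroblast list (3 of 9 genes with a row) summed to 58.5 CPM against 11.6 and 31.1. The fold on the log2(normalized count + 1) scale was 3.59 (log2 1.85, SE 0.47, adjusted p = 0.0181, limma), and without replicate 1 the log2 difference was 1.27 (adjusted p = 0.0154). With IL-17A the Tnf counts were 819.8, 856 and 483 against 112, 145 and 151 in the same controls as scaled in that table. That is a 5.14-fold difference (log2 2.36, SE 0.28, adjusted p = 0.0225), again without overlap. Here too replicate 1 had low goblet markers, at 2432 CPM against 8508 and 9916, and without it Tnf did not pass (log2 2.24, adjusted p = 0.161). The macrophage list (4 of 12 genes with a row) summed to 242 CPM in that library against 114 and 119. Its stromal and fibroblast list (2 of 9 genes with a row) summed to 60.6 CPM against 10.8 and 27.2. The part of these differences in the member values was not tested.

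Ltb was near the floor in untreated organoids, with 3, 2 and 5 reads in the Control-72h libraries. Its normalized counts there were 2.66, 1.91 and 4.24, against 16.9, 20.9 and 15.4 with IL1a+IL1b (log2 2.28, SE 0.54, adjusted p = 0.0140). With IL-17A they were 23.5, 31.1 and 15.1 (log2 2.61, SE 0.54, adjusted p = 0.0415). Both groups of treated libraries were clear of the controls. Ltb met the testing minimum of 10 only through these treated libraries, so its calls and this gap are not independent of the filter. The size depends on the added constant at such counts, running from 1.10 to 2.61 for IL1a+IL1b and from 1.34 to 2.96 for IL-17A between constants of 10 and 0.1.

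The secreted decoy Tnfrsf11b measured 151, 204 and 223 in Control-72h and 432, 806 and 800.0 with IL-17A, a 3.43-fold rise (log2 1.78, SE 0.31, adjusted p = 0.0356). With IL1a+IL1b it measured 374, 424 and 247, all above the controls, with a fold of 1.78 and an adjusted p of 0.0431, below the fold threshold of 2. The Fn14 gene Tnfrsf12a measured 763, 576 and 597 in Control-72h and 1663, 1318 and 1212 with IL-17A, a 2.16-fold rise (log2 1.11, SE 0.19, adjusted p = 0.0356). With IL1a+IL1b it measured 1959.9, 1164 and 796, a fold of 1.90 (adjusted p = 0.0481).

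Tnfsf15 was the member that fell. It measured 56.8, 98.1 and 88.2 in Control-72h and 21.7, 32.9 and 34.0 with IL1a+IL1b, a 2.67-fold fall (log2 -1.42, SE 0.37, adjusted p = 0.0192) with no overlap. With IL-17A it measured 14.6, 53.6 and 31.5 and did not pass (log2 -1.40, SE 0.52, adjusted p = 0.0997), although no treated library reached the lowest control. The TNF receptor gene Tnfrsf1a was 1.66-fold higher with each cytokine (adjusted p = 0.0145 for IL1a+IL1b and 0.0496 for IL-17A), under the fold threshold. Ltbr, Tnfrsf1b and Tnfsf10 did not pass with either cytokine at 72 hours.

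In all, 3 of 9 tested members passed with IL1a+IL1b at 72 hours, 2 of them higher, against 23% of 13021 genes tested (10.9% higher and 12.2% lower). Groups did not overlap for 7 of the 9, and for 54.7% of genes. With IL-17A, 4 of 9 passed, all higher, against 7.94% of 13071 genes (5.02% higher and 2.92% lower). Groups did not overlap for 6 of the 9, and for 45.3% of genes. These 7 calls were not equally firm, and those of Ltb entered the test only through the treated libraries. Leaving out 1 library at a time gave 1 to 4 called members for IL1a+IL1b and 0 to 4 for IL-17A. The IL-17A count was 0 without Control-72h replicate 2, without Control-72h replicate 4 or without IL17A-72h replicate 1, and it was 1 without IL17A-72h replicate 3 and 2 without Control-72h replicate 1, while the count over all genes went from 1038 to between 3 and 218 without any of these 5 libraries. For IL1a+IL1b the count was 1 without Control-72h replicate 2, and Tnf missed the threshold without Control-72h replicate 1 (adjusted p = 0.0521). Ltb was the least firm: without any one treated IL1a+IL1b library it dropped below the testing minimum, and without any 1 of the 6 libraries its IL-17A call was lost or its mean dropped below that minimum. The 3 IL-17A libraries were all from males by Xist, and of the controls only Control-72h replicate 1 was. With sex as a term, 0 members passed for IL-17A. That fit sets the treated libraries against this 1 control, so it cannot tell a part of sex from the loss of control libraries.

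The general leukocyte markers (3 genes) summed to 0.457 to 1.29 CPM in Control-72h, 0.437 to 3.47 with IL1a+IL1b and 0.418 to 3.55 CPM with IL-17A, and 7 of the 8 T cell markers had no row in the organoid tables. Of the neutrophil list only Ly6g and Ltf had a row in the organoid tables, and it summed to 133 to 152 CPM in Control-72h, 488 to 703 with IL1a+IL1b and 256 to 776 with IL-17A. The macrophage list, with Adgre1 and Csf1r among the genes without a row, summed to 47.8 to 80.3, 87.8 to 238 and 114 to 242 CPM in the same groups. The part of these genes' cells in the Tnf and Ltb values was not tested.

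At 12 hours no member passed with either cytokine in limma, where 0.0542% of genes passed for IL1a+IL1b and 0.0385% for IL-17A. By unadjusted p under 0.05, 5 of 9 members passed with IL1a+IL1b, against 4.38% of genes, and 3 of 8 with IL-17A, against 5.14%. In DESeq2 on recovered reads, 2 passed with IL1a+IL1b (Tnf and Tnfsf10), against 0.333% of genes, and 1 with IL-17A (Tnfrsf11b), against 0.393%, and in edgeR 0 of either. Tnf measured 152, 119 and 157 in Control-12h and 661, 465.7 and 426 with IL1a+IL1b (log2 1.84, SE 0.21, adjusted p = 0.0875), with no overlap. With IL-17A it measured 338, 282 and 274 against 159, 125 and 165 in the same controls (log2 0.99, SE 0.18, adjusted p = 0.257). Tnfrsf11b measured 81.7, 168 and 243 in Control-12h and 322, 885 and 897 with IL-17A (log2 2.08, SE 0.53, adjusted p = 0.759), where replicate 1 of each group was the lowest. With IL1a+IL1b it measured 205, 509 and 513 and overlapped the controls (log2 1.40, SE 0.50, adjusted p = 0.886).

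Ltb at 12 hours rested on 1, 3 and 5 control reads and on 21, 18 and 16 reads with IL1a+IL1b (log2 2.48, SE 0.55, adjusted p = 0.542). It too met the testing minimum only through the treated libraries. With IL-17A it had 11, 5 and 2 reads and fell below the testing minimum. Tnfsf10 measured 54.4, 39.3 and 83.1 in Control-12h and 132, 129 and 166 with IL1a+IL1b (log2 1.32, SE 0.30, adjusted p = 0.606). Tnfrsf1b measured 544, 664 and 940.5 against 978, 1383 and 1429 with IL1a+IL1b (log2 0.83, adjusted p = 0.886), and 572, 696 and 985 against 988, 1601 and 1563 with IL-17A (log2 0.88, adjusted p = 0.813). Their groups did not overlap, which was the case for 9.52% of all genes tested with IL1a+IL1b and 10.9% with IL-17A. With 3 libraries against 3, an exact permutation test of a single gene cannot give a two-sided p below 0.10.

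**Figure D2:**
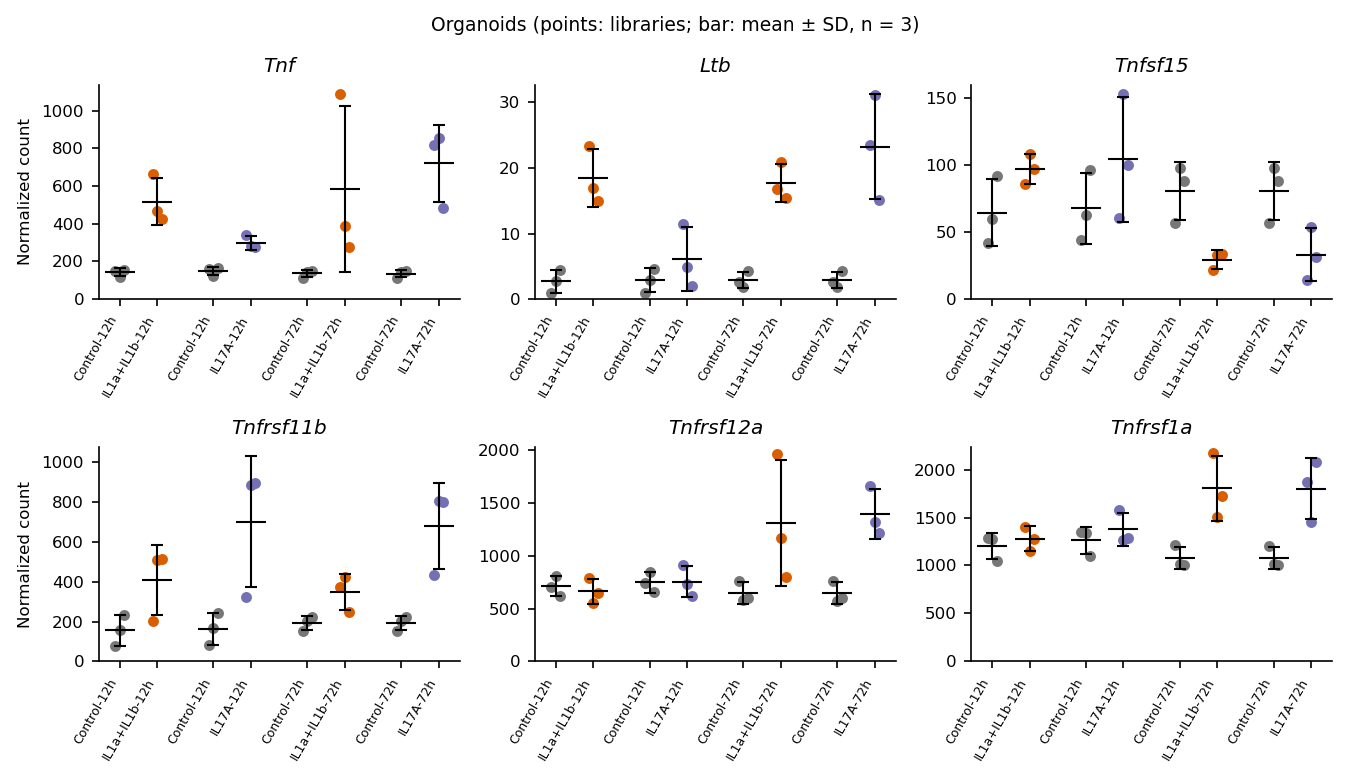
Normalized counts of 6 members in organoids, with 1 point per library, grey for untreated and colored for cytokine, and the mean ± SD (n = 3; bars that would pass 0 stop there). Tnf points with IL-17A at 72 hours lie between 483 and 856, all above the controls, and Tnfsf15 points with IL1a+IL1b at 72 hours lie between 21.7 and 34.0, all below them.

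The effect of IL1a+IL1b on Tnfsf15 differed between times. At 12 hours its counts were 42.2, 59.9 and 91.9 in controls and 85.7, 109 and 96.9 with cytokine, and the log2 difference between the 72-hour and the 12-hour effect was -2.06 (SE 0.46, adjusted p = 0.0121, limma). It was the only one of 9 members to pass for IL1a+IL1b, against 17.2% of all genes (7.27% higher and 9.94% lower). For IL-17A, 0 of 9 members passed, against 0.0378% of genes, and 4 had an unadjusted p under 0.05, as did 28.2% of genes. The corresponding difference for Tnf under IL-17A was 1.37 (SE 0.34, adjusted p = 0.0745). In these tests the controls shared by both times entered under each label as if separate libraries, so the p-values are not exact. The 72-hour and 12-hour cytokine libraries were therefore also compared with each other on CPM, in a fit that held each distinct control library once. There 2 members differed for each cytokine: Tnfsf10 (-1.25) and Tnfsf15 with IL1a+IL1b, and Tnf (1.14) and Tnfsf15 (-1.75) with IL-17A. In the same fits 22.6% of all genes differed with IL1a+IL1b and 13.7% with IL-17A.

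Between the cytokines themselves no member passed at 12 or 72 hours, and neither did any other gene in limma (0% of genes). Replicate 1 of IL1a+IL1b and of IL-17A were close, with a mean chi-square per gene of 4.74 at 12 hours and 8.42 at 72 hours. Replicates 1 and 3 within IL1a+IL1b stood at 64.7 and 85.3. No label pairs the libraries and the fit did not pair them, so spread shared by both cytokines stayed in its error. The lack of calls therefore cannot decide whether the cytokines differ. At 12 hours 3 of 9 members (Ltb, Tnf and Tnfsf10) had an unadjusted p under 0.05, against 1.18% of genes. At 72 hours 1 of 9 did, against 0.594%. Ltb at 12 hours measured 1.13 CPM with IL1a+IL1b and 0.353 with IL-17A. It met the minimum mean of 0.5 CPM only through the IL1a+IL1b libraries, so its place in the count is not independent of the filter. Tnf at 12 hours was higher with IL1a+IL1b by 0.85 on the log2 scale (95% interval 0.41 to 1.283). Tnfrsf11b at 72 hours was lower with IL1a+IL1b (log2 -0.96), with the interval of the difference from -1.74 to -0.17. Every member's adjusted p was above 0.99, and these intervals are those of single genes.

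In stromal cells the question was what loss of Smad4 or Alk3 in Gli1+ cells changes in those cells. In the distal colon after Smad4 loss, Tnf and Tnfsf11 rose and Tnfsf10 fell; no member passed both thresholds in the other 3 stromal comparisons. In bulk samples, fewer cells of a type and less RNA per cell cannot be told apart.

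Tnf measured 89.0 and 145 in GWTT-Distal and 816 and 730.4 in GS4T-Distal, a 6.74-fold rise (log2 2.75, SE 0.26, adjusted p = 0.00267). The RANKL gene Tnfsf11 measured 32.3 and 76.5 against 474 and 714, an 11.5-fold rise (log2 3.52, SE 0.45, adjusted p = 0.00558). The TRAIL gene Tnfsf10 measured 120.3 and 147 against 28.3 and 35.2, a 4.11-fold fall (log2 -2.04, SE 0.34, adjusted p = 0.0119). None of these groups overlapped. Ltb measured 45.0 and 34.8 against 4.43 and 16.4 (log2 -2.06, SE 0.72, adjusted p = 0.0911).

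The receptors stayed under the fold threshold. Tnfrsf1b, the TNF receptor typical of immune cells, measured 1506 and 1508 in GWTT-Distal and 2385 and 2289.8 in GS4T-Distal (fold 1.55, adjusted p = 0.00999). Tnfrsf12a measured 536 and 609 against 1322 and 877 (fold 1.88, adjusted p = 0.0314), and Ltbr 2092 and 1831 against 2733 and 2999 (fold 1.46, adjusted p = 0.0257). Tnfrsf11b measured 1384 and 1439 against 999 and 1062, the log2 difference being -0.45 (adjusted p = 0.0324). All 4 passed the adjusted p. In total 3 of 9 tested members passed both thresholds, 2 higher, against 13.9% of 15258 genes (7.86% higher and 6.08% lower). Groups did not overlap for any of the 9, as for 67.5% of genes. Leaving out 1 library leaves a single library in a group. The call of Tnfsf10 was lost without GWTT-Distal replicate 1 or without replicate 2.

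Marker sums of other cell types differed in the same libraries. The neutrophil list (8 genes) summed to 14.4 to 15.7 CPM in GWTT-Distal and 316 to 487 in GS4T-Distal, and the macrophage list (12 genes) to 673 to 776 and 1275 to 2297 CPM. The B and plasma cell list (5 genes) went from between 3487 and 4818 CPM to between 111 and 447, and the T cell list was at 21.9 to 31.1 and 20.3 to 21.5 CPM. Epithelial markers summed to 59.4 to 189 CPM in GWTT-Distal and 728 to 1458 in GS4T-Distal. Their part in the Tnf, Ltb and receptor values was not tested.

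In the proximal colon after Smad4 loss no member passed both thresholds. Tnf measured 63.1 and 85.0 in GWTT-Proximal and 494 and 156 in GS4T-Proximal (log2 1.91, SE 0.57, adjusted p = 0.0838), and Tnfsf11 159 and 65.6 against 282 and 320.0 (log2 1.55, SE 0.44, adjusted p = 0.0756). Ltb measured 83.7 and 79.9 against 25.8 and 34.9 (log2 -1.42, SE 0.37, adjusted p = 0.0607). Ltbr measured 1521 and 1368 against 2538 and 2559 (fold 1.77, adjusted p = 0.0119) and Tnfrsf1b 1346 and 1046 against 2019 and 1773 (fold 1.59, adjusted p = 0.0483), both under the fold threshold. Tnfsf15 rested on 1, 7, 11 and 44 reads and did not pass, and it met the testing minimum only through the GS4T-Proximal libraries. That is 0 of 10 members, against 9.6% of genes (5.24% higher and 4.36% lower). Groups did not overlap for 8 of the 10, and for 65.4% of genes. Of the 10, 6 had an unadjusted p under 0.05, against 34.2% of genes. DESeq2 on recovered reads called Tnf, Tnfsf11 and Ltb, and 13.1% of genes, and edgeR called 0.

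The marker sums differed here too, with neutrophil markers at 4.71 to 14.6 CPM in GWTT-Proximal and 104 to 118 in GS4T-Proximal, macrophage markers at 201 to 324 against 989 to 1762, and epithelial markers at 13.7 to 541 against 1338 to 1682 CPM. The B and plasma cell list summed to 1564 to 2784 CPM in GWTT-Proximal and to 426 to 827 in GS4T-Proximal, and their part in the member values was not tested. In a test of the Smad4 effect in proximal against distal colon, 0 of 10 members passed, against 0.187% of genes. Tnfsf11 was the 1 member with an unadjusted p under 0.05, as had 10% of genes, the proximal minus the distal effect being -1.98 on the log2 scale (SE 0.73, adjusted p = 0.406).

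After Alk3 loss no member passed in stromal cells, against 0.358% of genes in the proximal (0.345% higher and 0.013% lower) and 0% in the distal colon, nor did any in edgeR or DESeq2. Groups did not overlap for 6 of 9 members in the proximal colon, against 56.4% of genes, and for 6 of 10 in the distal colon, against 54.3%. By unadjusted p under 0.05, 3 of 9 members passed in the proximal colon (Ltbr, Tnfrsf1b and Tnfrsf1a), against 21.6% of genes, and 4 of 10 in the distal colon (Tnfrsf11b, Tnfsf10, Tnfsf11 and Tnfrsf12a), against 18.7%. Tnfsf11 measured 36.8 and 87.0 in GWTT-Distal and 125 and 887 in GA3T-Distal (log2 2.53, SE 0.97, adjusted p = 0.26), so 1 library carried most of the difference. Without GA3T-Distal replicate 1, which leaves a single library in that group, the log2 difference of Tnfsf11 was 3.94. In the proximal colon it measured 168 and 69.0 against 221 and 255 (log2 1.13, adjusted p = 0.243).

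Ltbr after Alk3 loss measured 1600.2 and 1438 in GWTT-Proximal and 2249.5 and 2601 in GA3T-Proximal (log2 0.67, adjusted p = 0.0959). Tnfsf10 measured 137 and 167 in GWTT-Distal and 90.9 and 59.5 in GA3T-Distal (log2 -1.03, adjusted p = 0.207). Tnf in the distal colon measured 102 and 165 against 105 and 107, with overlap, and in the proximal colon 66.4 and 89.4 against 111 and 151 (log2 0.74, adjusted p = 0.267). In the test of the Alk3 effect between segments, neither a member nor any other gene passed in limma (0%), and 0 members had an unadjusted p under 0.05, against 6.84% of genes. Neutrophil markers summed to 51.3 to 112 CPM and macrophage markers to 861 to 1552 CPM in GA3T-Proximal. In GA3T-Distal neutrophil markers summed to 74.3 to 120, macrophage markers to 827 to 1152, and B and plasma cell markers to 1797 to 1947 CPM. Since GS4T and GA3T were compared with the same GWTT libraries, their values are given side by side only.

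**Figure D3:**
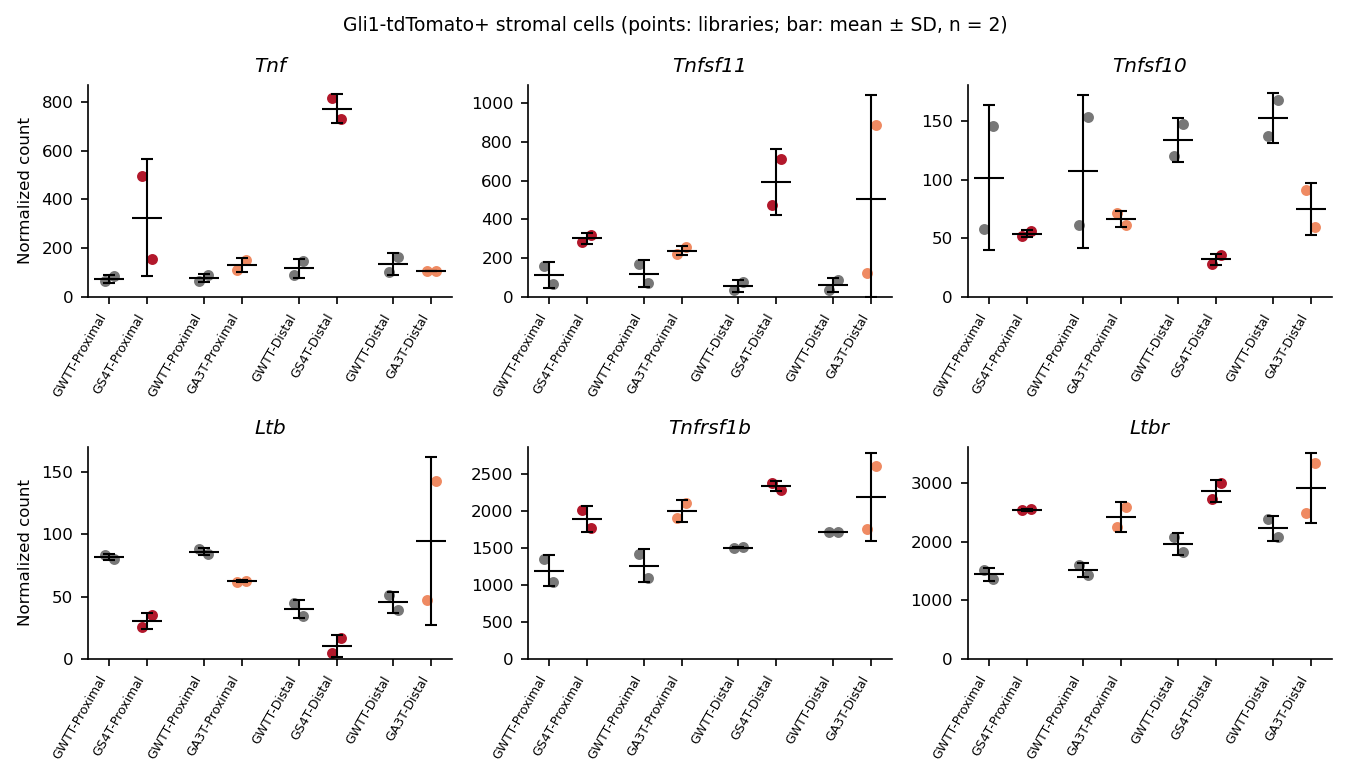
Normalized counts of 6 members in Gli1-tdTomato+ stromal cells, with 1 point per library, grey for control and colored for Smad4 or Alk3 deletion, and the mean ± SD (n = 2; bars that would pass 0 stop there). Tnf in GS4T-Distal lies at 730.4 and 816, above both GWTT-Distal libraries, while in GA3T-Distal Tnfsf11 lies at 125 and 887.

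Goblet cells were sorted from the same genotypes and show the epithelial side of a deletion made in stroma. No member passed both thresholds in any of the 4 goblet comparisons, against 0.325% of genes (0.174% higher and 0.151% lower) after Smad4 loss and 0.0899% (0.0375% higher and 0.0525% lower) after Alk3 loss in the proximal colon, and 0% for each in the distal colon. By unadjusted p under 0.05, 0 of 9 members passed proximally and 0 of 7 distally after Smad4 loss, against 16.6% and 10.6% of genes. After Alk3 loss 3 of 9 and 3 of 8 passed, against 15.3% and 11.8%. edgeR on recovered reads called no member, and DESeq2 called Tnf and Tnfsf15 in the proximal colon after Alk3 loss, where it called 3.23% of genes.

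Tnfsf15 measured 132 and 102 in GWTM2-Proximal and 20.1 and 5.53 in GA3M2-Proximal (log2 -3.31, SE 0.63, adjusted p = 0.148). Without GA3M2-Proximal replicate 1, which leaves a single library in that group, the log2 difference was -4.16. In the distal colon it measured 79.7 and 63.4 against 23.5 and 14.4 (log2 -1.89, SE 0.43, adjusted p = 0.318). In both segments all Alk3 libraries lay below the controls, and groups did not overlap for 52.1% of genes tested proximally and 44.2% distally. Goblet markers were lower in the same Alk3 libraries, at 10025 to 13566 CPM against 30946 to 34339 in the proximal and 15261 to 24447 against 35947 to 63203 in the distal controls. Normalized counts of Muc2, the gene of the sort reporter, were 18753 and 14042 in GA3M2-Proximal against 179572 and 224217, and 16015 and 12294 in GA3M2-Distal against 41156 and 109532. The part of this in the Tnfsf15 values was not tested. After Smad4 loss the Tnfsf15 groups overlapped, at 137 and 91.6 against 124 and 96.1 in the proximal colon.

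Tnf measured 89.6 and 53.6 in GWTM2-Proximal and 227 and 219.5 in GA3M2-Proximal (log2 1.67, SE 0.33, adjusted p = 0.152). In the distal colon the control libraries were far apart, at 231 and 33.9, and enclosed the GA3M2-Distal values of 143 and 141. Tnfrsf11b, low in control goblet cells, measured 14.4 and 8.74 in GWTM2-Distal and 37.2 and 41.2 in GA3M2-Distal (log2 1.71, SE 0.50, adjusted p = 0.343). After Smad4 loss it measured 20.6 and 9.71 in GWTM2-Proximal against 32.6 and 27.5 in GS4M2-Proximal, and 15.1 and 9.06 in GWTM2-Distal against 1.90 and 4.596 in GS4M2-Distal, where it was below the testing minimum. Groups did not overlap in either segment, as for 50.2% of genes proximally and 45.7% distally. Tnfrsf12a measured 433 and 239.6 against 616 and 752 in the proximal colon after Alk3 loss (log2 1.08, SE 0.31, adjusted p = 0.244).

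GWTM2-Distal replicate 1 stood apart from replicate 2, with 3407 against 924 for Tnfrsf1b and 242 against 35.1 for Tnf, and it alone of the distal goblet libraries was from a female by Xist. In the distal colon after Alk3 loss, Tnf and Tnfrsf1b lay between these control libraries, so their direction depends on which control is kept. Tnfrsf1b was at 139 and 87.1 CPM in GA3M2-Distal, against 193 and 51.1 CPM in replicates 1 and 2 of GWTM2-Distal. In GS4M2-Distal Tnfrsf1b was at 77.8 and 70.9 CPM, between the same controls. Fits without either control leave a single control library, so no call is given from them. The general leukocyte markers summed to at most 1.93 CPM in goblet libraries. Of the neutrophil list (8 genes), only S100a8, S100a9, Ly6g and Ltf had a row in the GWTM2 and GA3M2 groups. These 4 genes summed to 20.7 to 83.0 CPM in GA3M2-Proximal against 0.630 to 1.31 in GWTM2-Proximal. In GA3M2-Distal they summed to 74.2 to 127 CPM against 8.01 to 10.0 in GWTM2-Distal, and their part in the Tnf values was not tested. With 2 libraries against 2, an exact permutation test of 1 gene cannot give a two-sided p below 0.333.

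**Figure D4:**
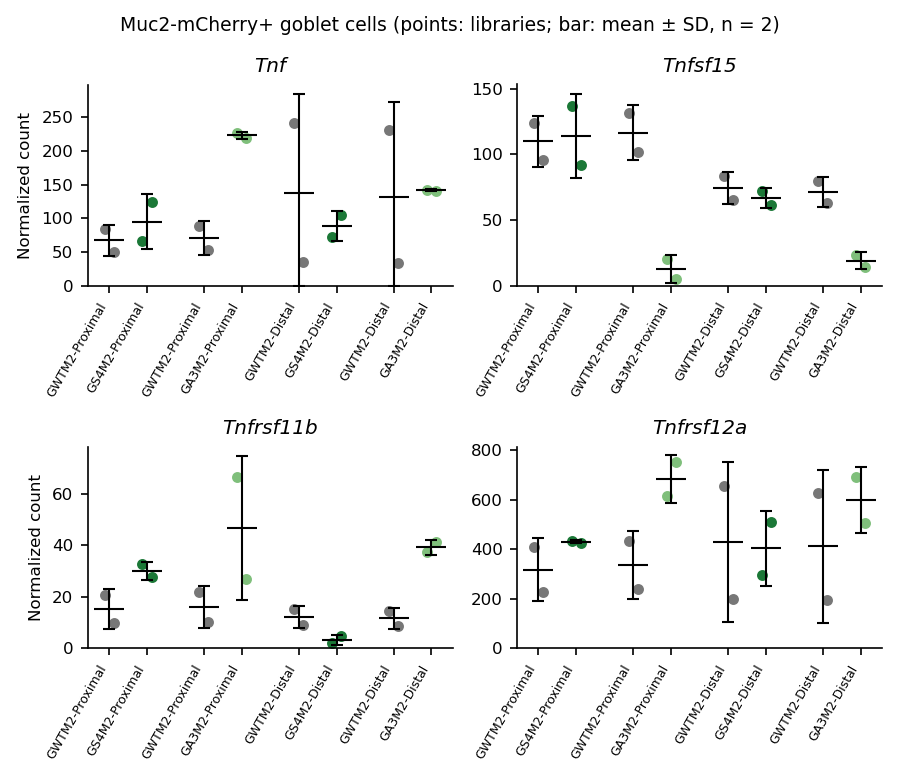
Normalized counts of 4 members in sorted goblet cells, with 1 point per library, grey for control and green for deletion in Gli1+ cells, and the mean ± SD (n = 2; bars that would pass 0 stop there). Tnfsf15 lies at 5.53 and 20.1 in GA3M2-Proximal, below both controls, and Tnf in GWTM2-Distal spans 33.9 to 231 in the scale of the GA3M2 table.

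Across the 12 tables, 10 of 106 tested pairs passed both thresholds, 8 higher and 2 lower, against 4.67% of 166043 tests of a gene in a table, and they involved 7 members. These pairs are not independent: 3 with IL1a+IL1b and 4 with IL-17A at 72 hours rest on the same 3 control libraries. Among them the Ltb calls entered the test only through the treated libraries, and the IL-17A calls did not hold when single libraries were left out. A further 10 pairs passed the adjusted p with a fold under 2, against 2.83% of those tests. Tnfrsf1a, Tnfrsf1b and Ltbr passed both thresholds in no table, and their log2 changes in the 12 tables stayed between -0.48 and 0.88.

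**Figure D5:**
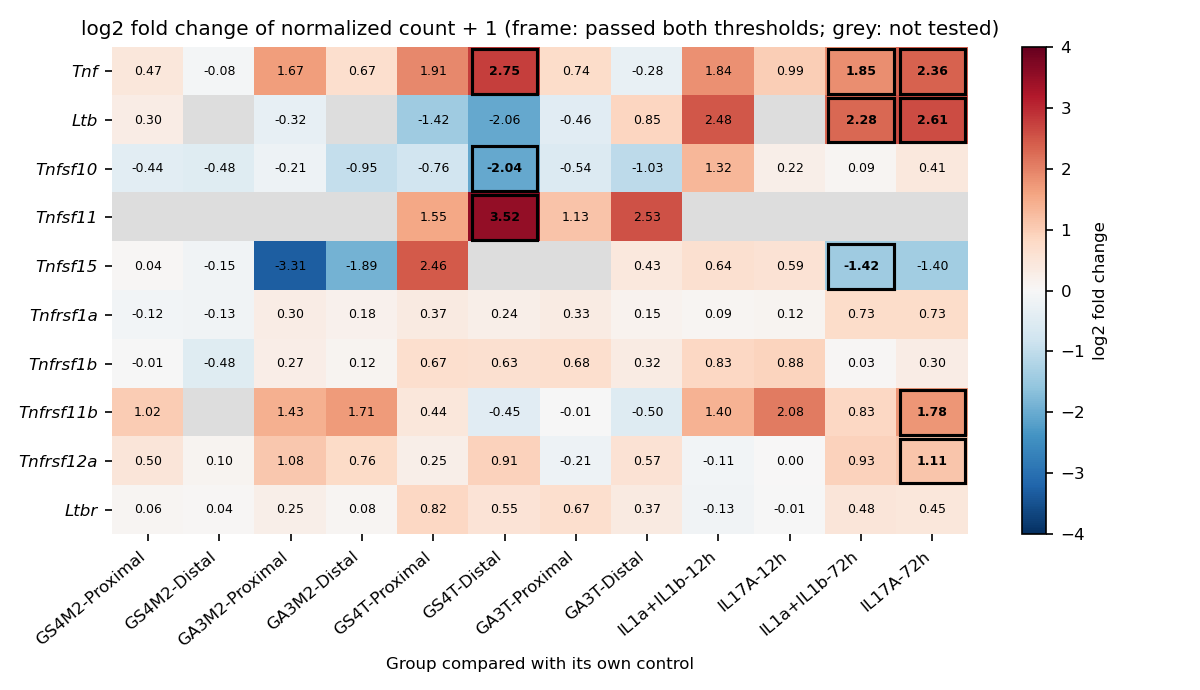
log2 fold change of normalized count + 1 for each member (vertical axis) in each of the 12 comparisons with the group's own control (horizontal axis), red for higher and blue for lower. Framed cells passed an adjusted p under 0.05 and a fold of at least 2, grey cells were not tested, and the framed values run from -2.04 for Tnfsf10 in GS4T-Distal to 3.52 for Tnfsf11 in the same group.

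The rest of the pathway was read from 3 lists: 13 other ligands, 23 other receptors and 19 signalling proteins. In GS4T-Distal, 5 other receptors rose and 4 fell among 23 tested, 3 of 10 other ligands fell, and 2 of 19 signalling proteins rose, where 13.9% of all genes passed. The receptors that rose were Tnfrsf9, Tnfrsf11a, Tnfrsf21, Tnfrsf23 and Tnfrsf26. Tnfrsf11a, the receptor RANK that Tnfsf11 engages, measured 61.3 ± 2.31 in GWTT-Distal and 217 ± 11.6 in GS4T-Distal (SD, n = 2; log2 1.81, SE 0.25, adjusted p = 0.00712). Those that fell included Tnfrsf13b and Tnfrsf17, receptors of B cells and plasma cells, with log2 changes of -2.34 (SE 0.44, adjusted p = 0.0170) and -5.42 (SE 1.03, adjusted p = 0.0176), beside the B and plasma cell sums given above. Tnfaip3, the feedback inhibitor A20 of NF-κB, measured 2626 ± 536 against 6164 ± 145 (log2 1.25, adjusted p = 0.00559), and Casp8, the caspase of death receptors, 394 ± 45.3 against 822 ± 47.1 (log2 1.06, adjusted p = 0.00691). Among the calls that fell, Tnfrsf17, Edar and Cd40lg averaged 3.52, 8.54 and 1.17 in GS4T-Distal. They met the testing minimum of 10 only through the GWTT-Distal libraries, so their calls are not independent of the filter. The median log2 change was -0.22 for the other ligands, -0.28 for the other receptors and 0.02 for the signalling proteins, against 0.0048 over all genes.

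In GS4T-Proximal, 3 other receptors rose (Tnfrsf21, Tnfrsf23 and Tnfrsf26) and Tnfrsf19 fell among 22 tested. Fasl and Tnfsf9 fell among 11 ligands, and Casp8 rose among 19 signalling proteins, where 9.6% of all genes passed. Fasl averaged 7.14 in GS4T-Proximal against 58.2 in GWTT-Proximal, so it met the testing minimum of 10 only through the control libraries. After Alk3 loss none of the 3 lists had a called gene in stromal cells; in goblet cells Traf1, an adaptor of TNF receptors, fell in the proximal colon from 268 ± 7.39 to 26.0 ± 1.61 (SD, n = 2; log2 -3.31, SE 0.29, adjusted p = 0.0434), the 1 gene called in these lists among the 4 goblet comparisons.

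In organoids the 3 lists had no called gene at 12 hours with either cytokine. At 72 hours with IL1a+IL1b, 2 of 4 tested other ligands rose, 3 of 13 receptors rose and 1 fell, and 3 of 18 signalling proteins rose and 1 fell, where 23% of all genes passed. With IL-17A, 2 of 4 ligands, 1 of 14 receptors and 2 of 18 signalling proteins rose and 1 signalling protein fell, where 7.94% of all genes passed. The receptor Cd27, called higher with both cytokines, averaged 84.5 with IL1a+IL1b against 8.90 in Control-72h. With IL-17A it averaged 86.2 against 8.88. It met the testing minimum of 10 only through the treated libraries, so its calls are not independent of the filter. Tnfsf12, which encodes TWEAK, the ligand of Tnfrsf12a, measured 30.8 ± 19.4 in Control-72h, 131 ± 24.7 with IL1a+IL1b (log2 2.20, SE 0.44, adjusted p = 0.00874) and, against 30.8 ± 19.4 in its own table, 150.1 ± 21.1 with IL-17A (log2 2.40, SE 0.45, adjusted p = 0.0365). Tnfaip3 rose by log2 1.53 with IL1a+IL1b (adjusted p = 0.00248) and 1.60 with IL-17A (adjusted p = 0.0224), and Birc3, an NF-κB target that blocks cell death, by 1.26 (adjusted p = 0.00455) and 1.46 (adjusted p = 0.0227). Fadd, the adaptor of death receptors, fell with both, the log2 change being -1.06 (adjusted p = 0.00867) and -1.23 (adjusted p = 0.0494). The members' own median log2 change was 0.73 with either cytokine at 72 hours, and that of all genes was -0.0011 with IL1a+IL1b and -0.0056 with IL-17A.

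By the correlation of group means of log2 CPM over the 18 groups and 11366 genes, the gene whose pattern was most like Tnf was Btc (Pearson r 0.88). For Tnfrsf1a it was Spsb1 (0.99), for Tnfrsf11b Cxcl16 (0.96), for Tnfrsf12a Picalm (0.95) and for Tnfsf15 Pask (0.92). Groups of 1 cell type share tissue, sort and controls, so these values describe the 18 groups and carry no p.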

How the data were processed

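RNA of sorted goblet cells, sorted stromal cells and organoids was purified with an RNeasy kit and made into libraries with a SMARTER mRNA-Seq kit, according to the labels. Per the submitters' processing notes, STAR 2.5.3 aligned reads to mm10 and DESeq2 1.28.1 normalized the gene counts; the counting program, annotation and strand setting are not given in the sources used here. The authors deposited 12 tables of normalized counts (a signal scaled by size factors), each holding 1 group and its control, normalized separately. Whole reads were recovered by dividing each library by the value of 1 read (tolerance 0.1), which gave whole numbers for 100.0% of values in each library, and CPM were computed as shares of the total over named genes. Rows without a gene name, 4 in each GS4M2 set, held up to 28.2% of the summed normalized counts of a library. They were left out, also from the CPM totals.

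Within each table, limma 3.58.1 (R 4.3.3) was fitted on log2(normalized count + 1) of all genes with a mean of at least 10, with Benjamini-Hochberg adjustment over all of them. A gene was called at an adjusted p under 0.05 and a fold of at least 2; with the added constant, fold changes of low genes are understated. Effects at different times or segments were compared by an interaction term over both tables, each with its own control columns. For the times, the shared control libraries entered that fit under both labels as if separate. Cell types and both cytokines were compared on log2(CPM + 0.1) at a mean CPM of at least 0.5. The cell type fits pooled segments and labeled times without a term for them. All tests were two-sided. The limma fit was checked on simulated data with 200 changed genes. edgeR 4.0.16 and DESeq2 1.42.0 on recovered reads, sex as a term, near-identical replicates averaged and each control library once were alternatives chosen after seeing the data. Sex was read from Xist. Replicate numbers carry no stated pairing. Named are all 10 members, the called genes of the other lists, and for likeness the highest Pearson r over group means (mean CPM of at least 0.5, unnamed gene models left out). The members and lists were chosen with earlier results of these data known. Totals of 14221322 to 23686940 reads per library set the counting precision.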

Additional observations from a re-analysis of the deposited data

Results flagged for a closer look

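The effect of IL1a+IL1b on Tnfsf15 differed between 72 and 12 hours, by -2.06 on the log2 scale in a test of the difference (limma, adjusted p = 0.0121). The control groups of both times shared 2 of 3 libraries, which entered that test under each label as if separate. Tnfrsf11b in goblet cells after Smad4 loss went opposite ways in the segments, with a log2 change of 1.02 proximally and -1.66 distally and all libraries of each deletion group on one side of their controls. That difference was not tested, and the distal values rest on 15 and 8 control reads against 2 and 5. In 28 sets of the 4 control libraries of a cell type, 1 for each member and cell type with values, no library passed Dixon's 95% criterion on CPM, the Tnf value of GWTM2-Distal replicate 1 (13.7 CPM against 1.94 to 4.95 in the other goblet controls) included.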

How the results depend on the processing

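Of 574 alternative values for 57 pairs of a gene and a comparison with a fold of 2 or more, 489 kept their direction and side of the threshold, 34 lost the call, 51 gained one and 0 reversed. Among smaller changes, 74 of 1341 values had the other sign. Counts of called members at an unadjusted p and a fold of at least 2 were 3 for GA3M2-Proximal, 2 for GA3M2-Distal, 3 for GS4T-Proximal, 2 for GA3T-Distal, 4 for IL1a+IL1b-12h and 1 for IL17A-12h, 3 for each cytokine's time difference and 1 for the GS4T segment difference. They stand without the share of all genes under this rule, so they cannot show an excess among the members. A constant of 10 gave 1 (Ltb) in GS4T-Proximal. DESeq2 gave 2 in GA3M2-Proximal, 3 in GS4T-Proximal, 2 in IL1a+IL1b-12h and 1 in IL17A-12h. With sex as a term the count was 1 in IL1a+IL1b-12h and 0 in IL17A-72h, where the effect rests on 1 male control. In GA3M2-Distal, GS4T-Proximal and GA3T-Distal only 1 library was of the other sex. There the term does no more than leave that library out, so no count is given. With each control library once, 2 members differed in time for each cytokine. The cause of these changes was not tested.

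No source pairs libraries by replicate number, and organoid groups shared only 2 of 3 numbers with their controls. The correlations of same-numbered libraries' deviations were -0.06 to 0.30 in sorted cells, 0.62 to 0.64 at 12 hours and -0.19 to 0.20 at 72 hours. With the replicate number as a block the count of members was 3 in GA3M2-Proximal, 4 in IL1a+IL1b-12h, 1 in IL17A-12h and 0 in IL17A-72h. Over all genes the block gave 258 calls in GS4M2-Proximal, 698 in GA3M2-Proximal, 4 in GA3M2-Distal, 253 in GA3T-Proximal, 62 in GA3T-Distal, 100 in IL1a+IL1b-12h, 120 in IL17A-12h, 1506 in IL1a+IL1b-72h against 2998 without it, and 4 in IL17A-72h.

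Leaving out 1 library gave 0 to 0 called members in GS4M2-Proximal, GA3T-Proximal, IL1a+IL1b-12h and IL17A-12h, 0 to 1 in GS4M2-Distal, GA3M2-Proximal, GS4T-Proximal and GA3T-Distal, 0 to 3 in GA3M2-Distal, 2 to 5 in GS4T-Distal, 1 to 4 in IL1a+IL1b-72h and 0 to 4 in IL17A-72h; a lone library left in a group was assumed to vary like the other group. Pseudocounts of 0.1, no filter, a mean of at least 50, upper-quartile rescaling, edgeR, and replicates 3 and 4 averaged kept every count of called members within 1.5 times.

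Over all genes, DESeq2 against limma called 270 against 43 in GS4M2-Proximal, 147 against 0 in GS4M2-Distal, 431 against 12 in GA3M2-Proximal, 240 against 0 in GA3M2-Distal, 969 against 55 in GA3T-Proximal (edgeR 0), 776 against 0 in GA3T-Distal, 43 against 7 in IL1a+IL1b-12h (edgeR 2), 51 against 5 in IL17A-12h and 2312 against 1038 in IL17A-72h. At 1 to 5 reads, depth limits Ltb in untreated organoids.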
